A study of Homo sapiens with 6 samples.

Results

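The genes described here are 48 genes of mitosis, among them the mitotic cyclins and CDK1, the kinases of the spindle and centrosome, the spindle checkpoint, the kinetochore, the mitotic kinesins and the machinery of anaphase and cytokinesis. They were chosen by name from knowledge of cell division, but with earlier results of these data known. Each of the 48 symbols matched a single gene among the 61806 of the deposited table. RNA was sequenced from MDA-MB-231 cells, a triple-negative breast cancer line, in 6 libraries. Libraries of shNC, cells carrying a control vector, numbered 2, as did those of shHMGA2-1 and of shHMGA2-2, cells in which a different short hairpin RNA targeted HMGA2, a chromatin protein that binds AT-rich DNA. All lines were kept in culture without a further treatment named in the labels. By the study's methods the hairpins were delivered by lentivirus under puromycin, and stable lines were grown from a cell population that began as a single clone, so that the effect of a hairpin and the character of its clone cannot be told apart. The controls carry shNC in their titles but a wild-type name in their library names, and the libraries titled shHMGA2-1 carry SH2 in theirs, so that which hairpin each line holds rests on the titles. No source used here says whether the libraries of a line came from separate cultures, so p-values measure only the spread between these libraries, which may be technical.

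Mitosis begins when CDK1, bound to B-type cyclins, phosphorylates proteins of the nucleus, chromosomes and microtubules. Kinetochores then attach each chromosome to the spindle, and the checkpoint keeps the anaphase promoting complex inactive until all are attached. CDC20 and UBE2C help that complex to mark cyclin B and securin for destruction, after which separase cuts cohesin and the cell divides. Most of these genes are transcribed together, late in the cell cycle, under FOXM1 and the MuvB complex, and their summed RNA is widely read as a measure of proliferation.

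Libraries held 16461178 to 17167293 counts. Vimentin, a mesenchymal marker of this line, had FPKM values (counts scaled by exonic size and library total) of 411 to 432, while the hormone receptor genes ESR1 and PGR had at most 12 counts and the leukocyte gene PTPRC at most 2. Other markers were less uniform. ERBB2 had 6.43 to 10.77 FPKM and EPCAM 3.08 to 7.26, while CDH1 had at most 4 counts. GATA3 went from 58 and 41 counts in shNC to 262 and 318 with shHMGA2-2. EGFR went from 9019 and 9103 counts in shNC to 5646 and 5765 with shHMGA2-1 and 3429 and 3145 with shHMGA2-2. HMGA2 itself was counted 2126 and 2161 times in control cells, 858 and 989 times under the shHMGA2-1 hairpin and 435 and 482 times under shHMGA2-2, so the targeted gene was lower in all 4 knockdown libraries. Levels of the mitosis genes are given below as CPM, counts scaled to a common library total by the TMM method. A gene is called where the quasi-likelihood test of edgeR gave a p under 0.05 after Benjamini-Hochberg adjustment across the 16110 genes tested, and every adjusted p below is of this kind. All 48 genes were tested. Fold changes are log2 values with their standard error (SE). In bulk RNA, a smaller share of cells in mitosis and less RNA per mitotic cell cannot be told apart.

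Promoter stretches of 4 members are shown because they carry the same letters while their RNA moved in opposite directions in shHMGA2-2 cells. They come from RefSeq windows in GRCh38.p14, 250 bases before to 50 after a gene's start, and 40 of the 48 genes matched an entry. FOXM1, AURKA, TTK, BUB3, BIRC5, TPX2, RACGAP1 and UBE2C did not. The motifs searched on both strands were TTTGAA, the CHR element that MuvB complexes bind, and CCAAT, the box bound by NF-Y. Capitals mark TTTGAA or TTCAAA and CCAAT or ATTGG. Shown are, among the members called in shHMGA2-2 cells with both motifs before the start and outside the deposited gene, the 2 that rose most and the 2 that fell most, read 5′ to 3′ on the strand of the gene.
ESPL1, chr12:53268231-53268293, plus strand: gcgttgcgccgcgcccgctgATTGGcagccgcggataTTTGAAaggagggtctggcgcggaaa
CDC20, chr1:43358783-43358950, plus strand: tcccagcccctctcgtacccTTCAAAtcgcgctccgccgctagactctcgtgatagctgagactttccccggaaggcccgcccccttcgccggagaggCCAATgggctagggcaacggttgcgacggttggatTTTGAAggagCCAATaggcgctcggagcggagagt
MKI67, chr10:128126424-128126541, minus strand: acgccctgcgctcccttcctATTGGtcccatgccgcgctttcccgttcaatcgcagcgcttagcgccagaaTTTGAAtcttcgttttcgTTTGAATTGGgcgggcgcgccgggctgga
ASPM, chr1:197146710-197146823, minus strand: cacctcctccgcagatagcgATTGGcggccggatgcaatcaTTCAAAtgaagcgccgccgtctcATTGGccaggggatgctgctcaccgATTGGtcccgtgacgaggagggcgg

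In the MKI67 stretch, the TTTGAA nearest the start shares a base with the ATTGG that follows it. The TTTGAA nearest the gene's start began 31 bases before it in ESPL1, 65 in CDC20, 29 in MKI67 and 113 in ASPM. Of the 40 matched members, 27 (67.5%) held TTTGAA, 31 (77.5%) held CCAAT and 23 (57.5%) held both. Of all 35116 promoter windows in the table, 15.2% held TTTGAA, 34.6% held CCAAT and 5.9% held both. Of the 11185 windows that matched a tested gene by symbol, 9.85%, 36.5% and 4.21% did. Among the members called higher in shHMGA2-2 cells, 11 of 18 matched held both motifs, against 4 of 7 among those called lower and 8 of 15 among those not called. So the letters that mark this family were present in members that rose, fell and did not pass the test.

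The 48 genes together took 0.996% and 0.999% of all counts in control cells, 1.11% and 1.14% with shHMGA2-1 and 1.13% and 1.1% with shHMGA2-2. After scaling, their summed level was 10405 and 10439 CPM in shNC, 10982 and 11515 with shHMGA2-1 and 10983 and 10500 with shHMGA2-2. The sum was therefore higher than in both controls in all 4 knockdown libraries, by little in the lowest of them. Per length, TOP2A (150.1 ± 0.728 FPKM in shNC, SD, n = 2) and TPX2 (139.8 ± 0.0354) had the highest levels and NUSAP1 (2.8 ± 0.0212) the lowest. Libraries of a line differed from each other by a median of 0.041 (shNC), 0.106 (shHMGA2-1) and 0.075 (shHMGA2-2) on the log2 scale over the 48 genes, without regard to sign.

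**Figure D1:**
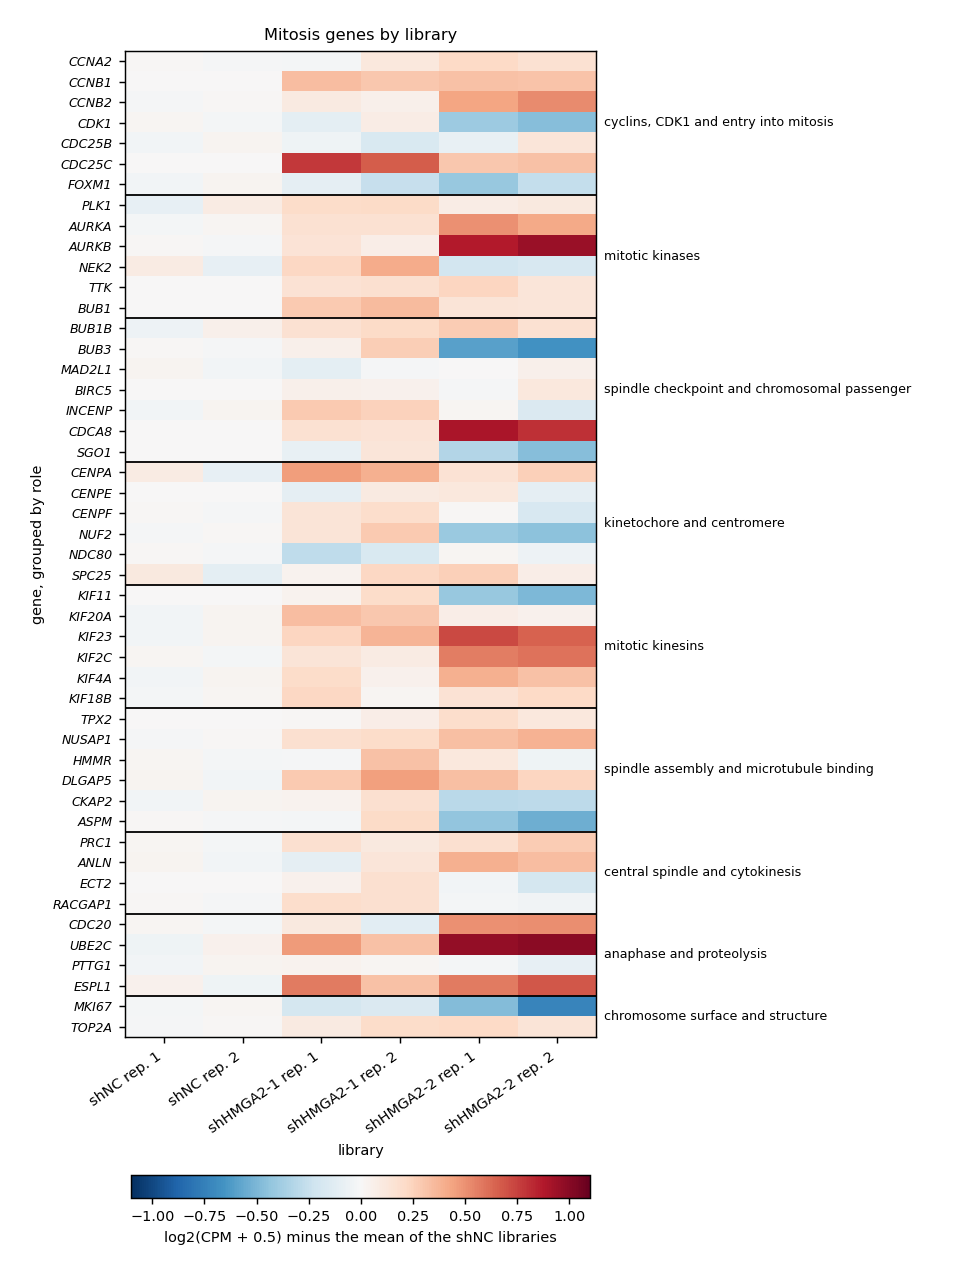
Level of each of the 48 mitosis genes (rows, grouped by role) in each of the 6 libraries (columns), as log2(CPM + 0.5) minus the mean of the 2 shNC libraries; red is higher and blue lower. UBE2C, AURKB and CDCA8 were highest and BUB3 and MKI67 lowest in the shHMGA2-2 libraries, and CDC25C was highest in the shHMGA2-1 libraries.

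In shHMGA2-1 cells 20 of the 48 genes (41.7%) were called against shNC, where 33.4% of all tested genes were called. CDC25C, ESPL1, CENPA, UBE2C and DLGAP5 were the largest of 18 that rose, and NDC80 and MKI67 fell. Fold changes ran from -0.23 to 0.73, with a median of 0.14 against 0.01 over all tested genes. Of all tested genes, 15.8% were called higher and 17.6% lower, against 37.5% and 4.17% of the mitosis genes. Among the 9062 tested genes at or above the level of the lowest member, 40.6% were called, 16.2% higher and 24.5% lower, with a median of -0.03. Only 7 of the 20 calls, those of CCNB1, CDC25C, BUB1, KIF20A, DLGAP5, UBE2C and ESPL1, held with every other tool, scaling, filter and model tried and with any library left out, not counting the settings chosen after seeing the data, and without either shNC library 9 genes were called. Lost under some settings were AURKA, PLK1, NEK2, BUB1B, INCENP, CENPA, CENPF, NUF2, NDC80, KIF23, RACGAP1, MKI67 and TOP2A.

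In shHMGA2-2 cells 31 of the 48 genes (64.6%) were called against shNC, where 58.7% of all tested genes were. UBE2C, AURKB, CDCA8 and KIF23 led 22 that rose, and BUB3, MKI67, ASPM, KIF11, CDK1, NUF2, SGO1, FOXM1 and CKAP2 fell. Fold changes ran from -0.64 to 0.98, with a median of 0.14 against 0.03 over all tested genes. Of all tested genes 29.5% were called higher and 29.2% lower, against 45.8% and 18.8% of the mitosis genes. Among genes at or above the level of the lowest member 67% were called, 28.5% higher and 38.4% lower, with a median of -0.06. The share of mitosis genes that changed was thus near that of such genes, while a larger share was higher and a smaller share lower. Of the 31 calls, 21 held under the same range of settings. CCNA2, CDC25C, FOXM1, TTK, BUB1B, KIF18B, TPX2, NUSAP1, PRC1 and TOP2A did not, and the 22 rises became 13 without shNC replicate 1 and 14 without shNC replicate 2.

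The lines were also set against each other, which asks whether the members moved alike under both hairpins. Between shHMGA2-2 and shHMGA2-1 cells 27 genes (56.2%) were called, 16 lower and 11 higher in shHMGA2-2, where 50.2% of all tested genes were called (25.7% lower and 24.5% higher). Of tested genes at or above the level of the lowest member, 59.3% were called (33.1% lower and 26.2% higher). BUB3 (-0.80), NUF2 (-0.65), ASPM (-0.58) and KIF11 (-0.57) were the lowest, and AURKB (0.80), CDCA8 (0.69), UBE2C (0.58) and CDC20 (0.50) the highest. Both comparisons with shNC share its 2 libraries. Counting their calls side by side, 9 genes were called higher in both lines (CCNB1, CDC25C, AURKA, BUB1B, KIF23, DLGAP5, UBE2C, ESPL1 and TOP2A), MKI67 was called lower in both, and NUF2 was called higher in shHMGA2-1 and lower in shHMGA2-2. The share of all tested genes called alike in both lines is not given here, so these counts are not read as an excess. No member that was called changed by 2-fold or more in any of these comparisons, where 8.49% (shHMGA2-1), 21.3% (shHMGA2-2) and 15.1% (between the lines) of all tested genes did. Of the 9062 tested genes at or above the level of the lowest member, 287, 1021 and 641 did. The result for the members depended on the scaling, since with upper quartile scaling UBE2C (1.09) and AURKB (1.03) passed 2-fold in shHMGA2-2 cells.

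With the 4 knockdown libraries taken as a single group against shNC, so that the difference between lines counts as error, edgeR called 0 of the 48 genes, where it called 5.26% of all tested genes (2.92% lower and 2.34% higher, and 3.09% with a change of 2-fold or more). At an unadjusted p under 0.05 in the edgeR test there were 8, where 4106 of the 16110 tested genes were. DESeq2 called 3, where it called 11.2% of all genes it tested. The smallest adjusted p-values were those of ESPL1 (0.55, adjusted p = 0.0594) and CCNB1 (0.32, adjusted p = 0.0596). The common biological coefficient of variation was 0.291 in this fit and 0.0583 in the fit with 3 groups.

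**Figure D2:**
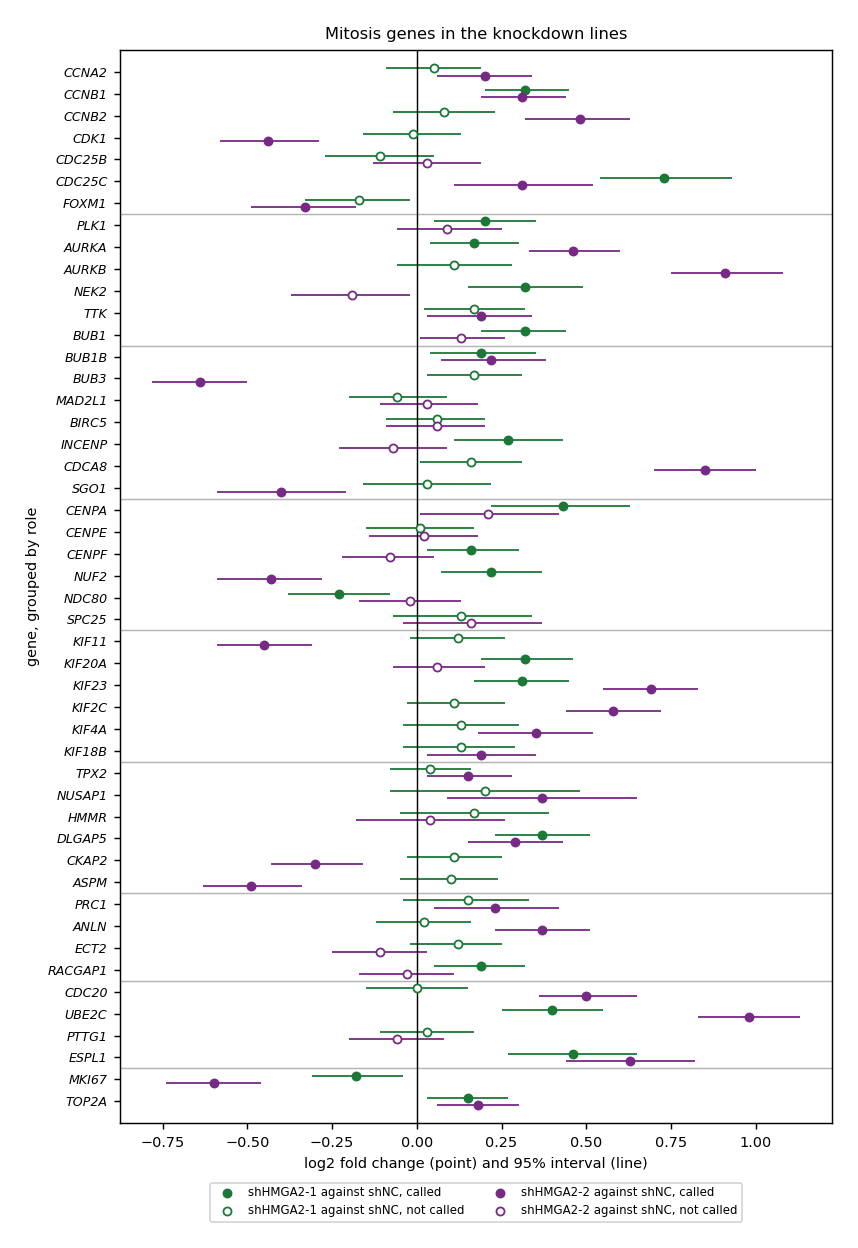
Log2 fold change against shNC (points) with 95% intervals (lines) for each mitosis gene, by role, in shHMGA2-1 (green) and shHMGA2-2 (purple) cells; filled points were called. The green points lie between -0.23 and 0.73 and mostly above 0, while the purple points spread from -0.64 to 0.98.

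Among the 7 genes of entry into mitosis, 4 rose and 2 fell in shHMGA2-2 cells and 2 rose in shHMGA2-1 cells. CCNB1, cyclin B1, was at 301 and 299.7 CPM in shNC, 381 and 369 with shHMGA2-1 and 375 and 371 with shHMGA2-2. Every knockdown library lay above every control, by nearly the same amount in both lines (0.32 ± 0.06 SE, adjusted p = 0.000182, and 0.31 ± 0.06, adjusted p = 9.22e-05). CCNB2, the other B-type cyclin, stood at 87.9 and 89.7 CPM in shNC, at 95.1 and 92.7 with shHMGA2-1 and at 120 and 127 with shHMGA2-2, a rise of 0.48 ± 0.07 in the latter (adjusted p = 5.9e-06). CDK1, the kinase both cyclins activate, went the other way in shHMGA2-2 cells. Its level was 244 and 237 CPM in shNC, 223 and 253 with shHMGA2-1 and 182 and 173 with shHMGA2-2, so that the shHMGA2-2 libraries alone lay below the rest (-0.44 ± 0.07, adjusted p = 9.95e-06). CDC25C, a phosphatase that activates CDK1, had 27.9 and 27.8 CPM in shNC, 48 and 44.6 with shHMGA2-1 and 34.3 and 34.9 with shHMGA2-2. It was the member with the largest rise in shHMGA2-1 cells (0.73 ± 0.10, adjusted p = 1.56e-06), and the lines differed (-0.42 ± 0.09, adjusted p = 0.000589). FOXM1, the transcription factor of this programme, was at 185 and 193 CPM in shNC, 176 and 159 with shHMGA2-1 and 141 and 158 with shHMGA2-2. It fell in shHMGA2-2 cells (-0.33 ± 0.07, adjusted p = 0.000436) and had a fold change of -0.17 (adjusted p = 0.0761) in shHMGA2-1 cells, but the former call was lost with limma on log2(FPKM + 1) and on log2(FPKM + 0.1). CCNA2, cyclin A2, rose in shHMGA2-2 cells (0.20 ± 0.07, adjusted p = 0.0145), a call lost without any of the shNC or shHMGA2-2 libraries.

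Among the 6 mitotic kinases, 4 rose in shHMGA2-1 cells (PLK1, AURKA, NEK2 and BUB1) and 3 in shHMGA2-2 cells (AURKA, AURKB and TTK), and none was called lower against shNC. AURKB, the kinase of the chromosomal passenger complex, had 53.8 and 53.1 CPM in shNC, 59.3 and 56.1 with shHMGA2-1 and 98.2 and 103 with shHMGA2-2. The shHMGA2-2 libraries stood far from the other 4, and the gene rose 1.89-fold there (0.91 ± 0.08, adjusted p = 7.22e-10). AURKA, the centrosomal Aurora kinase, was at 201 and 206 CPM in shNC, at 229 in both shHMGA2-1 libraries and at 288 and 273 in shHMGA2-2, with no overlap between lines. Its fold changes were 0.17 ± 0.06 (adjusted p = 0.0431) and 0.46 ± 0.06 (adjusted p = 1.14e-06), and the former was lost under 9 of these settings. BUB1, a checkpoint kinase at the kinetochore, was at 314 CPM in both shNC libraries, 383 and 399 with shHMGA2-1 and 346 and 342 with shHMGA2-2. It rose in shHMGA2-1 cells (0.32 ± 0.06, adjusted p = 0.000218), and 0.13 (adjusted p = 0.0599) was measured in shHMGA2-2 cells. NEK2, a kinase of centrosome separation, had 88.3 and 77.9 CPM in shNC, 97.7 and 110.2 with shHMGA2-1 and 72.1 and 73.1 with shHMGA2-2. The knockdown lines lay on either side of the controls and differed by -0.52 ± 0.08 (adjusted p = 1.42e-05). PLK1, which drives centrosome maturation, and TTK, the kinase that starts checkpoint signalling, gave fold changes of 0.09 to 0.20.

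The spindle checkpoint and passenger genes split in shHMGA2-2 cells, where 2 of 7 rose and 2 fell. BUB3, which brings BUB1 and BUB1B to the kinetochore, was at 452 and 449 CPM in shNC, 468 and 543 with shHMGA2-1 and 297 and 282 with shHMGA2-2. It was the member that fell most (-0.64 ± 0.07, 0.643-fold, adjusted p = 1.86e-08). CDCA8, the passenger subunit borealin, stood at 89.6 and 90.1 CPM in shNC, 101 and 99.4 with shHMGA2-1 and 168 and 156 with shHMGA2-2. It rose 1.8-fold in the last (0.85 ± 0.07, adjusted p = 3.67e-10), with no library of shHMGA2-2 near those of the other lines. SGO1, which protects centromeric cohesin, was at 59.6 and 59.8 CPM in shNC, 56.6 and 65.3 with shHMGA2-1 and 47.6 and 42.9 with shHMGA2-2, a fall of 0.40 on the log2 scale in the last (adjusted p = 0.000697). INCENP, the scaffold of the passenger complex, rose in shHMGA2-1 cells (0.27 ± 0.08, adjusted p = 0.00852) a call lost without either shNC library, and had -0.07 in shHMGA2-2 cells (95% interval -0.23 to 0.09). The other subunit, BIRC5 (survivin), gave 0.06 in both lines. Subunits of the passenger complex thus ranged from -0.07 to 0.91 in shHMGA2-2 cells, counting AURKB.

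Of the 6 kinetochore and centromere genes, 3 rose (CENPA, CENPF and NUF2) and NDC80 fell in shHMGA2-1 cells, while only NUF2 was called, lower, in shHMGA2-2 cells. NUF2 and NDC80 encode partners in the complex that holds microtubules. NUF2 was at 133 and 136 CPM in shNC, 148 and 164 with shHMGA2-1 and 101 and 97.8 with shHMGA2-2. NDC80 was at 132 and 130.3 CPM in shNC, 108 and 116 with shHMGA2-1 and 133 and 126 with shHMGA2-2. In shHMGA2-1 cells the partners thus stood on opposite sides of the control, and in shHMGA2-2 cells NUF2 alone stood apart, with NUF2 at 0.22 ± 0.07 (adjusted p = 0.024) and -0.43 ± 0.07 (adjusted p = 2.04e-05), and NDC80 at -0.23 ± 0.07 (adjusted p = 0.0182) and -0.02 (adjusted p = 0.832). The NUF2 call in shHMGA2-1 cells was lost with DESeq2, with no filter, with the replicate block and without either shNC library, shHMGA2-1 replicate 2 or shHMGA2-2 replicate 2, so the opposite calls of NUF2 in the lines rest on the setting. The NDC80 call was lost with upper quartile scaling, with no scaling, with limma and without either shNC library or shHMGA2-1 replicate 1, and the 50 tested genes nearest to it had a median of -0.52 in shHMGA2-1 cells. CENPA, the histone of the centromere, had 36.3 and 31.9 CPM in shNC and 46.9 and 44.7 in shHMGA2-1, a rise of 0.43 ± 0.10 (adjusted p = 0.0014) that was lost without shNC replicate 2. CENPE, a kinesin of chromosome congression, was called in no comparison (0.01 and 0.02 against shNC, intervals from -0.15 to 0.18).

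Among the 6 kinesins, KIF23, KIF2C, KIF4A and KIF18B rose and KIF11 fell in shHMGA2-2 cells. KIF23, a subunit of centralspindlin, was at 193 and 201 CPM in shNC, 233 and 255 with shHMGA2-1 and 328 and 310.1 with shHMGA2-2. The 3 lines did not overlap, and the gene rose in both knockdown lines (0.31 ± 0.07, adjusted p = 0.000908, and 0.69 ± 0.07, adjusted p = 3.28e-09), the former not without shNC replicate 1. KIF11, the motor that pushes spindle poles apart, was at 259.5 and 260 CPM in shNC, 267 and 298 with shHMGA2-1 and 195 and 185 with shHMGA2-2 (-0.45 ± 0.07 in the last, adjusted p = 3.55e-06). KIF2C, which takes microtubules apart at centromeres, stood at 134 and 131 CPM in shNC, 146 and 141 with shHMGA2-1 and 195 and 201 with shHMGA2-2 (0.58 ± 0.07, adjusted p = 7.88e-08). KIF20A, a kinesin of cytokinesis, rose in shHMGA2-1 cells (0.32 ± 0.07, adjusted p = 0.000466) and had 0.06 (adjusted p = 0.433) in shHMGA2-2 cells, and the lines differed by -0.26 ± 0.07 (adjusted p = 0.00195).

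In the group of spindle assembly factors, TPX2, NUSAP1 and DLGAP5 rose and CKAP2 and ASPM fell in shHMGA2-2 cells. DLGAP5, which stabilises kinetochore fibres, was at 234 and 224 CPM in shNC, 280.4 and 312 with shHMGA2-1 and 288 and 271 with shHMGA2-2. It was higher in all 4 knockdown libraries, and both calls held under the same range of settings (0.37 ± 0.07, adjusted p = 0.000122, and 0.29 ± 0.07, adjusted p = 0.000786). ASPM, which works at spindle poles, had 366 and 363 CPM in shNC, 358 and 420.2 with shHMGA2-1 and 270.5 and 249.8 with shHMGA2-2 (-0.49 ± 0.07 in the last, adjusted p = 2.61e-06). NUSAP1 was the member with the fewest reads (171 to 243 counts a library) and had the widest error (0.37 ± 0.14, adjusted p = 0.0221), a call lost without any of the shNC or shHMGA2-2 libraries. It overlaps OIP5 on the opposite strand, and how reads of overlapping genes were assigned is not given in the sources used here. The same holds for CCNA2 and EXOSC9, CDC25C and FAM53C, FOXM1 and RHNO1, KIF20A with CDC23 and BRD8, ANLN and KIAA0895, and, on the same strand, CENPA and SLC35F6 and PRC1 and ENSG00000284946.

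Of the 4 genes of the central spindle and cytokinesis, ANLN and PRC1 rose in shHMGA2-2 cells and RACGAP1 rose in shHMGA2-1 cells. ANLN, an actin-binding scaffold of the cleavage furrow, was at 541 and 520.2 CPM in shNC, 495 and 579 with shHMGA2-1 and 697 and 673 with shHMGA2-2, and rose in the last (0.37 ± 0.07, adjusted p = 4.29e-05). PRC1, which bundles central spindle microtubules, rose there too (0.23 ± 0.09, adjusted p = 0.0271), while RACGAP1, the partner of KIF23 in centralspindlin, rose in shHMGA2-1 cells (0.19 ± 0.07, adjusted p = 0.0282). Both of these calls were lost with DESeq2, with no filter, with the replicate block and without either shNC library or shHMGA2-2 replicate 2. ECT2, the exchange factor for RhoA that RACGAP1 binds, was called only between the lines (-0.23 ± 0.07, adjusted p = 0.00574).

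Of the 4 genes of anaphase and proteolysis, UBE2C, CDC20 and ESPL1 rose in shHMGA2-2 cells, and UBE2C and ESPL1 rose in shHMGA2-1 cells. UBE2C, the ubiquitin-conjugating enzyme of the anaphase promoting complex, was at 101 and 108 CPM in shNC, 145 and 130.1 with shHMGA2-1 and 204 and 207 with shHMGA2-2. The 3 lines did not overlap, and its rise of 0.98 ± 0.07 in shHMGA2-2 cells (1.97-fold, adjusted p = 3.2e-11) was the largest among the members. ESPL1, separase, had 57 and 52.9 CPM in shNC, 82 and 68.8 with shHMGA2-1 and 81.8 and 88.4 with shHMGA2-2, and both calls held under the same range of settings (0.46 ± 0.09, adjusted p = 0.000355, and 0.63 ± 0.09, adjusted p = 1.95e-06). CDC20, the activator of the complex, was at 210.5 and 204 CPM in shNC, 224 and 190.2 with shHMGA2-1 and 292 and 296 with shHMGA2-2. Only the shHMGA2-2 libraries stood apart (0.50 ± 0.07, adjusted p = 1.77e-06). PTTG1, securin, the inhibitor of separase, gave 0.03 and -0.06, with both intervals inside -0.20 to 0.17.

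MKI67 encodes Ki-67, a protein of the mitotic chromosome surface whose antibody staining is used to grade proliferation. It was at 1007 and 1042 CPM in shNC, 896 and 914 with shHMGA2-1 and 734 and 619 with shHMGA2-2, the only member whose levels were called lower in both lines. Its fold changes were -0.18 ± 0.07 (adjusted p = 0.0393) and -0.60 ± 0.07 (adjusted p = 3.27e-08), and the former call was lost under 9 of these settings. TOP2A, the topoisomerase that untangles sister chromatids and another common proliferation marker, was at 996 and 1004 CPM in shNC, 1069.7 and 1151 with shHMGA2-1 and 1162 and 1105 with shHMGA2-2. It rose in both lines (0.15 ± 0.06, adjusted p = 0.0435, and 0.18 ± 0.06, adjusted p = 0.00866), opposite to MKI67. Neither TOP2A call held when either shNC library was left out.

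Several groups of members on the same chromosome, or on a stretch of it, had fold changes of the same sign in shHMGA2-2 cells. Chromosome 12 held members of both signs, with FOXM1 at -0.33 and ESPL1 at 0.63. On chromosome 1, CDCA8, CDC20 and KIF2C lie between 37692481 and 44767767 (coordinates of the deposited table, GRCh38), and all 3 rose in shHMGA2-2 cells (0.50 to 0.85). NUF2, ASPM, NEK2 and CENPF lie on the same chromosome between 163266576 and 214664571, where NUF2 and ASPM fell against shNC while NEK2 (-0.19, adjusted p = 0.0517) and CENPF (-0.08, adjusted p = 0.262) were not called. All 4 were called lower in shHMGA2-2 than in shHMGA2-1 cells (-0.65 to -0.25), and NUF2, NEK2 and CENPF were called higher in the latter than in shNC. On chromosome 10, CDK1, KIF11, BUB3 and MKI67, spread from 60778331 to 128126423, all fell against shNC (-0.64 to -0.44) and all lay below shHMGA2-1 cells (-0.80 to -0.42). The 5 members on chromosome 15 (BUB1B, NUSAP1, CCNB2, KIF23 and PRC1) all rose in shHMGA2-2 cells (0.22 to 0.69), and on chromosome 20 TPX2, UBE2C and AURKA rose while CDC25B was at 0.03.

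Around the members named on chromosomes 1, 10, 15 and 20, other tested genes had medians of the same sign, not always of like size. For each member the median fold change of its 50 nearest tested genes on the chromosome was taken. Around CDCA8, CDC20 and KIF2C it was 0.65 to 0.81 in shHMGA2-2 against shNC. Around CDK1, KIF11, BUB3 and MKI67 it was -0.55 to -0.39, and around NUF2, ASPM, NEK2 and CENPF it was -0.59 to -0.20 against shNC and -0.54 to -0.46 between the knockdown lines. On chromosome 15 it was 0.04 to 0.37, with 0.04 around CCNB2, itself at 0.48, and on chromosome 20 it was 0.12 to 0.43. In shHMGA2-1 against shNC the same medians lay between -0.11 and 0.12. Of all 48 members, 35 had the sign of their neighbours' median in shHMGA2-2 against shNC, 29 in shHMGA2-1 against shNC and 39 between the lines. BUB1, SPC25, TOP2A and DLGAP5 were among those of opposite sign in shHMGA2-2 against shNC.

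Across the 48 genes, a member's fold change and the median of its neighbours had a Pearson correlation of 0.813 between the knockdown lines, 0.71 in shHMGA2-2 against shNC and 0.367 in shHMGA2-1 against shNC. These correlations run across genes, which share libraries and, within a stretch, neighbours, and are not independent replicates. Over 16093 tested genes with 50 neighbours the values were 0.25, 0.249 and 0.168, and over the 9046 of them at or above the level of the lowest member 0.363, 0.34 and 0.217. With 20 and 100 neighbours the members gave 0.83 and 0.791 between the lines. The median of member minus neighbours, with 50 of them, was 0.14 in shHMGA2-2 against shNC, 0.1 in shHMGA2-1 against shNC and 0.0 between the lines. Once the neighbours' median was subtracted, the SD of the fold changes over the 48 genes went from 0.358 to 0.212 between the lines, from 0.381 to 0.284 in shHMGA2-2 against shNC and from 0.174 to 0.175 in shHMGA2-1 against shNC.

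**Figure D3:**
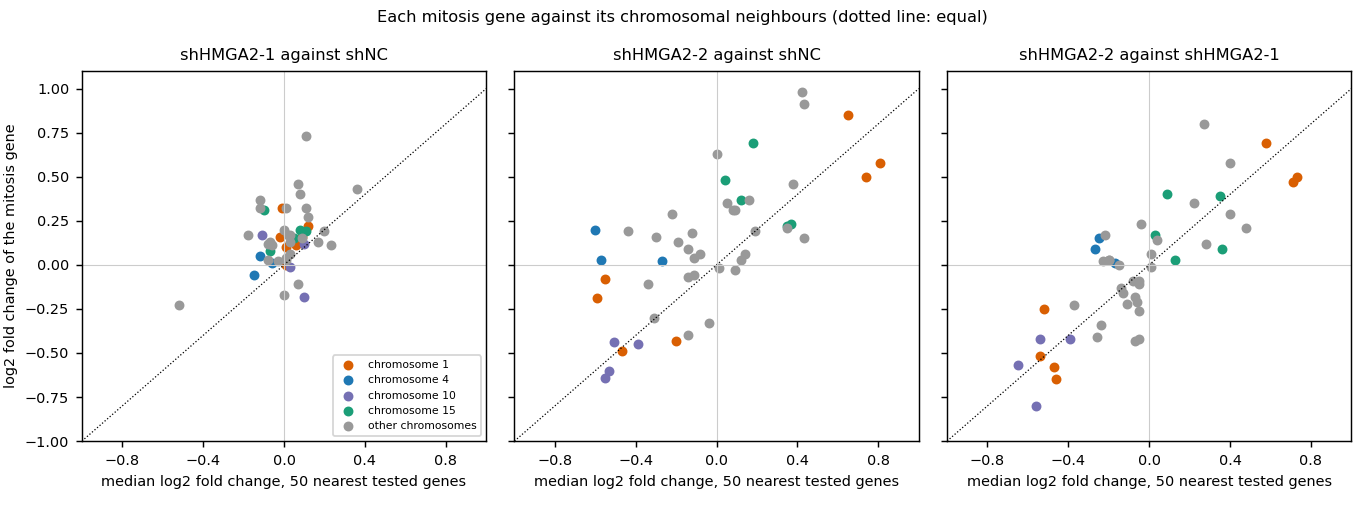
Log2 fold change of each mitosis gene (vertical) against the median log2 fold change of its 50 nearest tested genes (horizontal) in 3 comparisons, with points coloured by chromosome; the dotted line marks equal values. In both comparisons of shHMGA2-2 the points slope upward (Pearson 0.71 and 0.813 over 48 genes), with chromosome 10 at the lower left. Members minus neighbours had a median of 0.14 in shHMGA2-2 against shNC, above the dotted line, and of 0.0 between the lines. In shHMGA2-1 against shNC neighbours cover a narrow range (0.367).

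Some members stood apart from their stretch. CENPE, MAD2L1 and CCNA2 on chromosome 4 had neighbours at -0.60 to -0.27 in shHMGA2-2 against shNC and were themselves at 0.02 to 0.20. TTK on chromosome 6 was at 0.19 with neighbours at -0.44. NEK2 (-0.19) and CENPF (-0.08) on chromosome 1 had neighbours at -0.59 and -0.55. ESPL1 (0.63), KIF23 (0.69), AURKB (0.91) and UBE2C (0.98) rose beyond their neighbours, which were at 0.00, 0.18, 0.43 and 0.42. After subtracting in every library the median deviation of a gene's 50 neighbours from their own averages, a setting chosen after seeing the data, 26 genes were called in shHMGA2-2 against shNC, 5 lower and 21 higher, where 55.4% of all tested genes were. Under it ESPL1 (0.64, adjusted p = 9.37e-08), UBE2C (0.58, adjusted p = 3.56e-08), KIF23 (0.47, adjusted p = 8.33e-07), AURKB (0.44, adjusted p = 1.8e-05), CCNB2 (0.41, adjusted p = 6.78e-05) and DLGAP5 (0.44, adjusted p = 1.35e-06) remained higher. CDK1 (0.03, adjusted p = 0.744), KIF11 (-0.05, adjusted p = 0.539), BUB3 (-0.06, adjusted p = 0.477), MKI67 (-0.15, adjusted p = 0.116) and ASPM (-0.10, adjusted p = 0.233) were no longer called, nor were NUF2 (-0.14, adjusted p = 0.0875) and CKAP2 (-0.02, adjusted p = 0.816). SGO1 (-0.27, adjusted p = 0.00615) and FOXM1 (-0.25, adjusted p = 0.00361) kept their calls as lower, and CDC20 (-0.21, adjusted p = 0.00796), KIF2C (-0.17, adjusted p = 0.0286) and TPX2 (-0.17, adjusted p = 0.026) were called lower. CENPF (0.41, adjusted p = 6.23e-06) and NEK2 (0.31, adjusted p = 0.00114) were called higher instead. Whether the DNA of these stretches differs between the clones was not tested.

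**Figure D4:**
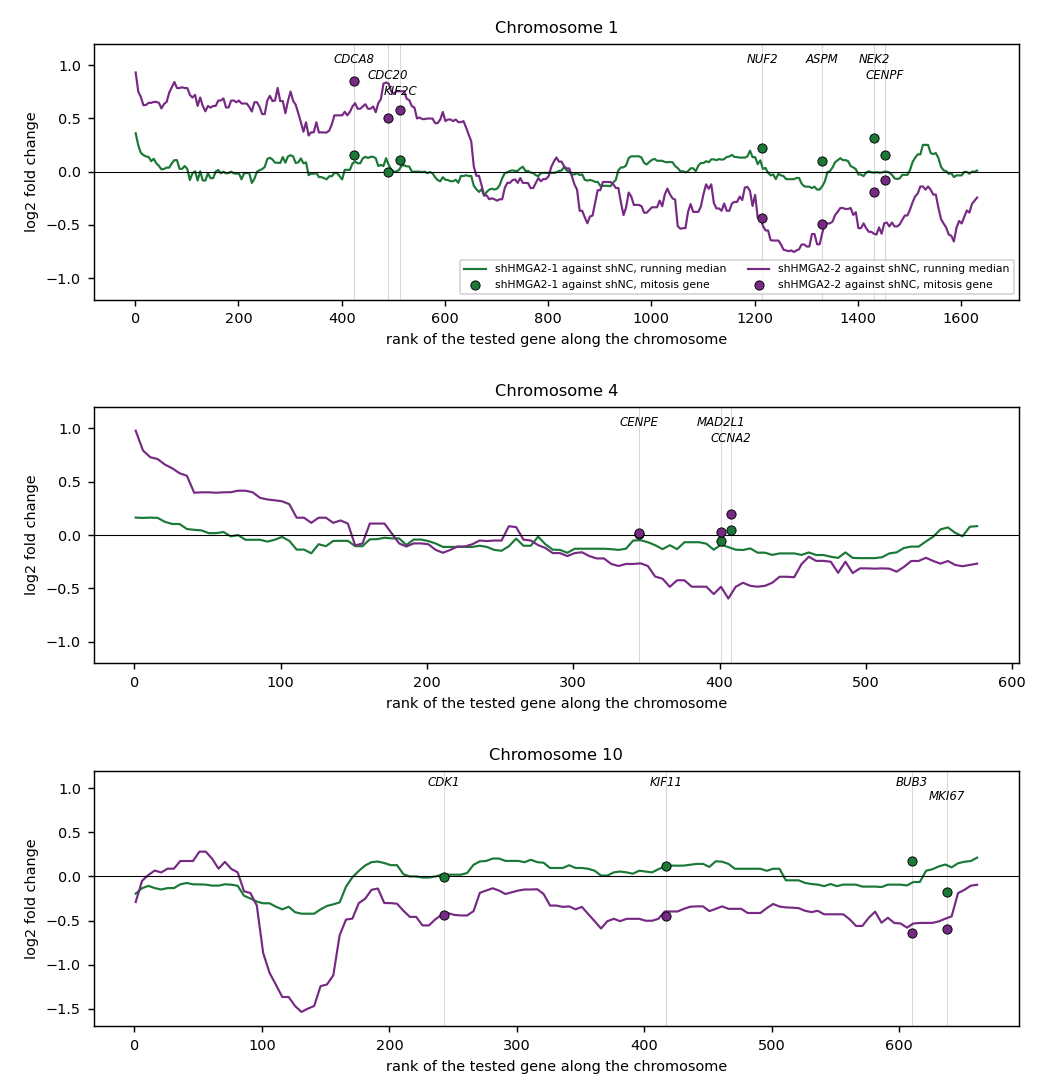
Running median of the log2 fold change over 51 neighbouring tested genes (lines) along the order of tested genes on chromosomes 1, 4 and 10, with the mitosis genes as points; green is shHMGA2-1 and purple shHMGA2-2, each against shNC. The purple line is above 0 around CDCA8, CDC20 and KIF2C and below 0 around NUF2, ASPM, CDK1, KIF11, BUB3 and MKI67. The purple points of these genes lie on the same side of 0 as the line, with CDC20 and KIF2C below the line and CDCA8 above it. Those of NEK2, CENPF, CENPE, MAD2L1 and CCNA2 lie above the line.

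Base composition and gene size also moved with the fold changes of shHMGA2-2 cells. Over the 48 genes, the Pearson correlation of the fold change against shNC with GC content was 0.365 in shHMGA2-2 and 0.0348 in shHMGA2-1, and with the log of exonic size -0.464 and -0.177. After GC trends were taken out library by library, a setting also chosen after seeing the data, 38 genes were called in shHMGA2-2, 29 in shHMGA2-1 and 33 between the lines. Of all tested genes, 63.4%, 41.0% and 56.3% were called under that setting. The part of these properties in the results was not tested otherwise.

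CDC25B, MAD2L1, BIRC5, CENPE, SPC25, HMMR and PTTG1 were called in none of the 3 comparisons. The share of all tested genes called in none is not given here, so the absence of a call is not read as particular to the members. Over all members not called, the 95% intervals ran from -0.33 to 0.48 in shHMGA2-1 against shNC and from -0.37 to 0.42 in shHMGA2-2, so changes of 2-fold lay outside them.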

How the data were processed

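RNA-seq of MDA-MB-231 lines gave 6 libraries, grouped by their titles. The authors deposited a table of genes holding raw counts and FPKM values for each library. Submitters' processing notes name HISAT2 2.2.1, HTSeq 0.6.1 and GRCh38.p13. Annotation and strand setting are not given in the sources used here. The deposited FPKM values equal counts divided by exonic size and library total in 100% of cases, within 0.0051.

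Counts were tested with edgeR 4.0.16 (R 4.3.3; TMM factors 0.9578 to 1.0531, filterByExpr, quasi-likelihood test, Benjamini-Hochberg over 16110 genes) in a model with 3 groups, and with the 4 knockdown libraries as a single group. A floor of 3 counts is 0.172 to 0.185 CPM, counting error only. Alternatives were DESeq2 1.42.0, limma 3.58.1 on log2(FPKM + 1) or log2(FPKM + 0.1), other scalings and filters, a replicate block, left-out libraries, and, chosen after seeing the data, centring on 50 neighbours and removing GC trends (GC content known for 98.1% of tested genes, from GENCODE transcripts). All 48 members were named. From each related list, the 3 genes with the smallest adjusted p in shHMGA2-2 against shNC were named. Members and lists were chosen with earlier results of these data known.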

Additional observations from a re-analysis of the deposited data

Results flagged for a closer look

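The effect of knockdown differed between the lines, by the test of the difference itself, for 27 of the 48 mitosis genes, where 50.2% of all tested genes did (quasi-likelihood test of edgeR, adjusted p under 0.05). Of tested genes at or above the level of the lowest member, 59.3% did. Since both lines were set against the same shNC libraries, this difference is that between shHMGA2-2 and shHMGA2-1 cells, given as log2 fold change with 2 libraries in each.

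Lower in shHMGA2-2 cells were BUB3 (-0.80), NUF2 (-0.65), ASPM (-0.58), KIF11 (-0.57), NEK2 (-0.52), SGO1 (-0.43), CDC25C (-0.42), CDK1 (-0.42), MKI67 (-0.42), CKAP2 (-0.41), INCENP (-0.34), KIF20A (-0.26), CENPF (-0.25), ECT2 (-0.23), RACGAP1 (-0.22) and BUB1 (-0.18). Higher in shHMGA2-2 cells were AURKB (0.80), CDCA8 (0.69), UBE2C (0.58), CDC20 (0.50), KIF2C (0.47), CCNB2 (0.40), KIF23 (0.39), ANLN (0.35), AURKA (0.29), KIF4A (0.23) and NDC80 (0.21). Subunits of the passenger complex (INCENP lower, AURKB and CDCA8 higher) and kinesins (KIF11 and KIF20A lower, KIF23, KIF2C and KIF4A higher) occurred in both directions. HMGA2 itself had 858 and 989 counts in shHMGA2-1 and 435 and 482 in shHMGA2-2, and the medians of the 50 neighbours moved with these differences (Pearson 0.813 over the 48 genes). Line, hairpin, depth of knockdown and clone cannot be told apart in this design.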

How the results depend on the processing

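Counts of mitosis genes called in shHMGA2-2 against shNC (31) and between the lines (27) stayed within 1.5 times of these values under every alternative, with 22 to 34 and 21 to 31 when libraries were left out. For shHMGA2-1 against shNC (20), DESeq2 gave 13 and leaving out libraries 9 to 25, 9 without either shNC library and 13 without shHMGA2-2 replicate 2. Of all genes tested, DESeq2 called 23.0% in this comparison and the main fit 33.4%. Upper quartile scaling gave 25 members, 0 of them lower (MKI67 and NDC80 lost the call), with 34.3% of all tested genes called. That scaling moved the median of all tested genes in shHMGA2-2 from 0.03 to 0.14 and left the members' median 0.12 above it. For the single group (0), DESeq2 and the GC correction each gave 3, upper quartile scaling, no scaling and both limma fits 2 each, a mean FPKM of at least 1 gave 1, centring on neighbours 5, the mean of the contrasts 27, and leaving out libraries 0 to 1. The mean of the contrasts does not count the difference between lines as error. Replicate numbers did not pair the libraries (correlations of -0.1 to 0.00213 between same-numbered deviations over 16110 genes). With the replicate block 12, 27, 27 and 0 genes were called in the 4 comparisons. Over all tested genes, calls in shHMGA2-1 (5388) ran from 3283 to 5795 when libraries were left out, and those of the single group (848) from 4 to 822, with 1972 by DESeq2, 8015 for the mean of the contrasts, 152 with the block and 1488 centred on neighbours.

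Counting a sign change only where the gene was called under either setting, single genes reversed only with the settings chosen after seeing the data. Among genes called under neither, signs also turned elsewhere, as for INCENP in shHMGA2-2 against shNC (-0.07, range -0.16 to 0.05). Centred on neighbours, they were NDC80 (0.15) in shHMGA2-1 against shNC. In shHMGA2-2 against shNC they were CDK1 (0.03), NEK2 (0.31), BUB1B (-0.0019), CENPF (0.41), KIF2C (-0.17), TPX2 (-0.17), PRC1 (-0.09), ECT2 (0.19) and CDC20 (-0.21). Between the lines they were CDK1 (0.03), AURKA (-0.06), CENPF (0.20), NDC80 (-0.23), KIF2C (-0.22), TPX2 (-0.22), PRC1 (-0.21), CDC20 (-0.20) and MKI67 (0.01). With the GC trend removed it was CDC25B (-0.12, shHMGA2-2 against shNC). The cause was not tested beyond the neighbours' medians. With 2 libraries a line, standard errors of 0.06 to 0.14 in the fit with 3 groups limit what could be called.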

Other observations

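Other genes of cell division were counted from lists chosen alongside the 48. In shHMGA2-2 against shNC, where edgeR's quasi-likelihood test called 29.2% of all tested genes lower and 29.5% higher, 6 of 10 cohesin genes fell and 3 rose (median -0.23), with SMC1A (-0.33), RAD21 (-0.34) and WAPL (-0.37) among the former. Of 8 condensin genes 1 fell and 2 rose (NCAPG2 -0.23, SMC4 0.19, NCAPG 0.18). Of 17 genes of the anaphase promoting complex and its regulators 5 fell and 4 rose, with ANAPC1 at -0.56, ANAPC2 at 0.61 and ANAPC15 at 1.11, the last a rise from 112 and 116 counts in shNC to 276 and 244. Of 27 other kinetochore genes 9 fell and 5 rose (median -0.01). SKA3, of the complex that couples kinetochores to shrinking microtubules, went from 1986 and 1962 counts in shNC to 1755 and 1856 with shHMGA2-1 and 1021 and 949 with shHMGA2-2 (-1.08 ± 0.08 SE, adjusted p = 2.61e-11), while its 50 neighbours had a median of 0.06. ZWINT (-0.63, neighbours -0.55) and ZWILCH (-0.69, neighbours 0.18) also fell. Medians of the 50 neighbours were -0.21 for SMC1A, -0.30 for RAD21 and -0.49 for WAPL. They were 0.40 for NCAPG2, -0.33 for SMC4, 0.29 for NCAPG, -0.05 for ANAPC1, 0.67 for ANAPC2 and 0.10 for ANAPC15.

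Of 15 other mitotic kinases and phosphatases 7 fell and 2 rose in shHMGA2-2 cells. MASTL, the kinase that holds back phosphatase PP2A during mitosis, had 5954 and 5906 counts in shNC, 3885 and 4090 with shHMGA2-1 and 1454 and 1309 with shHMGA2-2. Its fold changes were -0.65 ± 0.07 (adjusted p = 6.91e-08) and -2.18 ± 0.07 (adjusted p = 9.85e-18), and its 50 neighbours had medians of -0.36 and -1.30. CDC25A (0.66) and PPP2R5D (0.65) rose there. Among 15 genes of the DREAM and MuvB transcription complexes 6 fell and 4 rose, with TFDP1 at -1.14, E2F5 at -1.47 and RBBP4 at 1.04. Of 39 genes of DNA replication 13 fell and 15 rose (median 0.05), among them CCNE2 (-0.84), E2F1 (0.92) and MCM7 (0.65). Of the 12 tested G1 cyclins and CDK inhibitors 4 fell and 2 rose. CDKN1A, the inhibitor p21, fell in both lines, from 385 and 434 counts in shNC to 209 and 236 with shHMGA2-1 (-0.96 ± 0.13, adjusted p = 1.56e-06) and 274 and 313 with shHMGA2-2 (-0.56 ± 0.12, adjusted p = 0.000333). CCND1, cyclin D1, fell by 0.82 on the log2 scale in shHMGA2-2 cells and was at -0.09 in shHMGA2-1 cells, and RB1 was at -0.37 and -0.01. In shHMGA2-2 cells neighbours had medians of 0.13 around CDC25A, 0.07 around PPP2R5D, -0.25 around TFDP1, -0.72 around E2F5 and 0.35 around RBBP4. Around CCNE2, E2F1 and MCM7 they were -0.52, 0.43 and 0.30, and around CDKN1A, CCND1 and RB1 -0.03, 0.30 and -0.31.

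In shHMGA2-1 against shNC, with 17.6% of all tested genes called lower and 15.8% higher, the same lists gave 1 lower and 0 higher for condensin and for cohesin, 0 and 1 for the anaphase promoting complex, 3 and 4 for the other kinetochore genes, 3 and 4 for the kinases and phosphatases, 4 and 5 for DREAM and MuvB, 6 and 4 for DNA replication and 2 and 2 for the G1 genes.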
